A study of Mus musculus with 2 samples.

Results

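The 45 genes described here encode proteins that copy DNA in S phase or prepare cells for it, and they were chosen by name for their role in replication, with earlier results of these data known. They were read in 2 RNA-seq libraries of cultured mouse bone marrow cells, 1 library per condition. Each locus that StringTie assembled from the reads was given to the gene of the GENCODE vM21 annotation (GRCm38) with the most exon bases on its strand, and the TPM of the loci of a gene were summed. TPM is a level per unit of transcript length, scaled to the total of the library. Each of the 45 genes had at least 1 unshared locus in each library. They are set beside 13464 genes tested, those with an unshared locus whose TPM reached 1 in M or MR.

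Both libraries were made from bone marrow cells of wild-type (WT) mice. One culture received macrophage colony-stimulating factor alone (M), and the other received M-CSF together with RANKL, the cytokine that drives osteoclast differentiation (MR). According to the labels, cells were held for 2 days in M-CSF, and in MR RANKL was then present with M-CSF for 2 days. The bone marrow culture method of the study gives a longer time with RANKL and does not name the harvest day of the RNA. The sample information used here gives no later time for M, so equal total time in culture cannot be checked. Age, sex and the number of mice behind each culture are not given in the sources used here. No difference between the cultures has a replicate check, and every value below describes these 2 libraries.

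DNA replication starts at origins that the origin recognition complex marks. CDC6 and CDT1 load the ring-shaped MCM2-7 helicase there in G1, and CDC45 and the GINS complex turn it into the active CMG helicase at the start of S phase. Polymerase alpha with primase then lays down primers, polymerases epsilon and delta extend them on the PCNA clamp, and FEN1 and LIG1 join the Okazaki fragments. E2F transcription factors drive many of these genes at the G1/S transition. M-CSF is a growth factor for macrophage precursors, and osteoclast precursors leave the cell cycle before they fuse.

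Most of the DNA replication genes were lower in the MR library than in the M library. Of the 45 genes, 35 (77.8%) had a lower TPM in MR, against 40.5% of all genes tested, and 10 had a higher one, against 59.5%. Their median log2 ratio of MR to M, with 1 TPM added to each value, was -0.63, with a range from -2.09 (Pcna) to 1.80 (Chaf1b), whereas the median over all genes tested was 0.21. A log2 ratio below -1 was found for 13 of the 45 (28.9%), against 13.3% of all genes, and a ratio above 1 for 3 (6.67%), against 21.2%. Of these 3, Pole turns below -1 when its several loci are averaged by exon bases instead of summed, which gives 36 genes lower, 14 below -1 and 2 above 1. The shares of all genes were not computed with that average, so these 3 counts have no background beside them. The 13 were Pcna, Cdc6, Gins1, Prim1, Tk1, Gins2, Mcm2, Mcm10, Lig1, Rpa2, Mcm3, Mcm5 and Cdc45, and the 3 were Chaf1b, Dut and Pole. The other 29 lay between these thresholds. Pcna alone lay below -2, against 3.87% of all genes, and 0 of the 45 lay above 2, against 7.12%. With median-of-ratios scaling in place of TPM, which moved the median of all genes from 0.21 to 0.04, 39 of the 45 were lower in MR against 48.3% of all genes, 17 lay below -1 against 15.7%, and 1 lay above 1 against 17.9%.

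**Figure D1:**
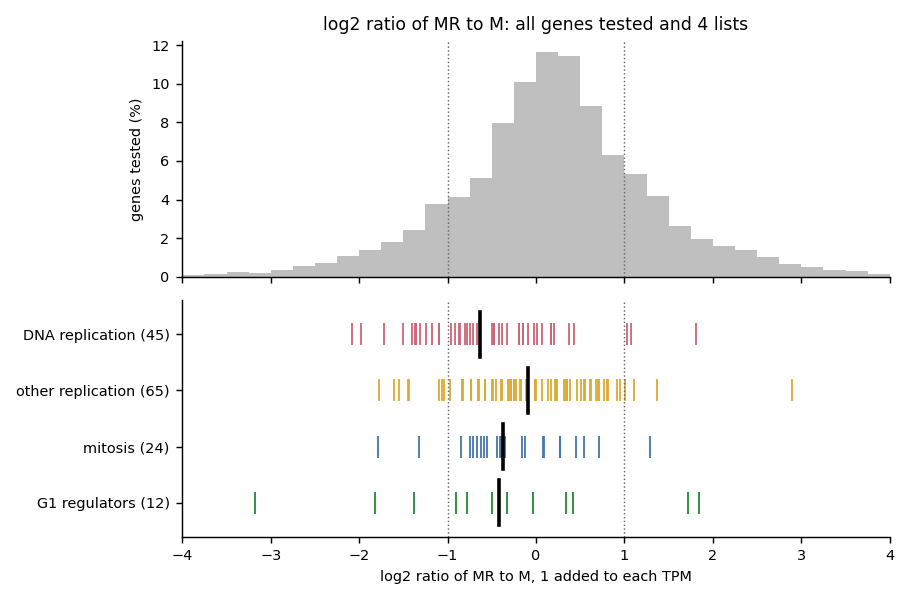
Distribution of log2 ratios of MR to M, with TPM summed over the loci of a gene and 1 added to each sum. The upper panel gives the percentage of the 13464 genes tested in each bin, and the lower panel gives 1 thin line per gene for the DNA replication genes and 3 other lists, with the number of genes in parentheses and a thick black line at the median; dotted lines mark -1 and 1. The median of the 45 DNA replication genes lies at -0.63, left of that of the 65 other replication genes at -0.09, the 24 mitosis genes at -0.38 and the 12 G1 regulators at -0.42.

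The summed TPM of the 45 genes was 1727 in M and 996 in MR, and their median TPM was 22.3 and 14.2. Pcna alone made up 30.01% of the sum in M and 12.2% in MR. Without Pcna the sum was still lower in MR, at 875 against 1208 in M. In M 33 of the 45 genes had a TPM above the median of all genes tested (12.8), and in MR 22 had one above that library's median (14.9). Across the 45 genes the levels in the libraries had a Spearman correlation of 0.757. This correlation is across genes, which share both libraries and are not replicates.

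The aligned bases came to 3.63 Gb in M and 2.98 Gb in MR, as read from the ratio of coverage to FPKM. Osteoclast markers (Acp5, Ctsk, Mmp9, Oscar, Dcstamp, Ocstamp and Calcr) summed to 116 TPM in M, where 4 of the 7 were at 0, and to 23871 in MR, where none was. The 5 macrophage markers summed to 4265 and 3342, with 4 of 5 lower in MR and unequal ratios. Cd68 had 2607 TPM in M and 2171 in MR, Itgam 171 and 135, Adgre1 681 and 148, and Mertk 108 and 15.8, whereas Csf1r had 697 and 872. The value of Itgam came from a locus shared with another coding gene. Markers of other marrow cells also differed between the libraries. The 4 granulocyte progenitor markers summed to 111 TPM in M (12.5 to 55.3 per gene) and 82.1 in MR (8.25 to 32.2), with 3 of 4 lower in MR. The 5 neutrophil markers summed to 1285 and 891, with 5 of 5 lower, and the 5 stem and progenitor markers to 11.9 and 17.6, with 1 of 5 lower. The 6 erythroid markers summed to 3.35 and 2.11, with 4 and 5 at 0, the 6 lymphoid markers to 10.02 and 7.46, with 3 at 0 in each, and the 5 stromal markers to 22.3 and 36.2. The part of these cells in the replication values was not tested. In bulk RNA, fewer cycling cells and less RNA of these genes per cell cannot be told apart.

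E2F sites are a known feature of replication promoters, so the promoters of the 45 genes were searched for the letters of 3 cell cycle elements. RefSeq promoter sequences (GRCm38.p6, from 250 bases before to 50 bases after the start) were found for 36 of the 45 genes. The E2F octamers TTTCCCGC, TTTCGCGC, TTTGCCGC and TTTGGCGC, on either strand, occurred in 13 of the 36 (36.1%), against 704 of 27025 genes (2.605%) in the whole table and 1 of 21 mitosis genes. The NF-Y letters CCAAT, on either strand, occurred in 20 of the 36 (55.6%), against 41.1% of all genes and 18 of 21 mitosis genes. The CHR letters TTTGAA and TTCGAA, an element of late cell cycle genes, occurred in 7 of the 36 (19.4%), against 21.7% of all genes and 17 of 21 mitosis genes. The shares are descriptions of letters in a window and were not tested. E2F and NF-Y letters occurred together in 8 of the 36 genes. In 8 genes an octamer lay wholly before the start, and these stretches are shown because, of the 3 elements, the E2F octamers had the shares farthest apart between replication genes and all genes, with E2F octamers and CCAAT or its complement in capitals. They lie, in the order listed, at chr11:98907987-98908046 (plus strand), chr8:95633492-95633551 (plus), chr8:75109334-75109393 (plus), chr1:128359719-128359778 (minus), chr5:138172015-138172074 (minus), chr4:108579401-108579453 (plus), chrX:93632260-93632319 (minus) and chr5:151651209-151651244 (minus), and each reads 5′ to 3′ on the strand of its gene.
Cdc6: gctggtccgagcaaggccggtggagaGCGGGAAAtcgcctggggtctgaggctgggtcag
Gins3: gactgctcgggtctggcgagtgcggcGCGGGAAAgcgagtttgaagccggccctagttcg
Mcm5: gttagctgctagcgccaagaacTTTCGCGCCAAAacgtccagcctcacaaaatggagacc
Mcm6: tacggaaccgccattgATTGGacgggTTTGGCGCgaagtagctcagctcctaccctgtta
Mcm7: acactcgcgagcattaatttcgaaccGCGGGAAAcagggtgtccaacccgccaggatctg
Orc1: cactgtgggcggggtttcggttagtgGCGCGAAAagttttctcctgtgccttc
Pola1: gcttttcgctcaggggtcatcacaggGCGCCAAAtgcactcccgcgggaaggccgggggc
Rfc3: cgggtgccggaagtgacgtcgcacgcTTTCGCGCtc

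The octamer of Mcm5 overlaps a second one on the other strand, which gives the run TTTCGCGCCAAA. The octamer shown begins 138 bases before the start in Cdc6, 41 in Gins3, 149 in Mcm5, 47 in Mcm6, 165 in Mcm7, 27 in Orc1, 138 in Pola1 and 10 in Rfc3. Genes with the octamer did not all have the same ratio between the cultures. The median log2 ratio of the 13 genes with E2F letters was -0.74, from -1.98 (Cdc6) to 0.07 (Gins3), and that of the other 23 matched genes was -0.67, from -2.09 (Pcna) to 1.80 (Chaf1b).

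**Figure D2:**
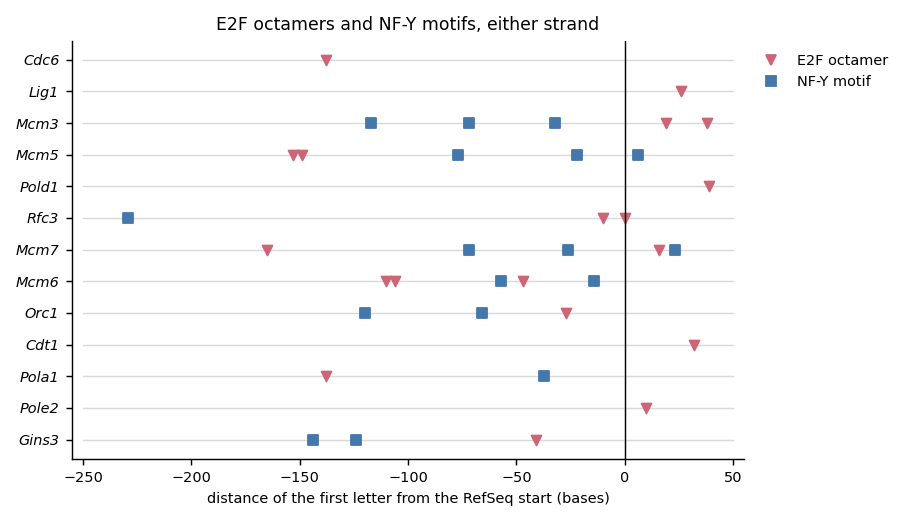
Positions of E2F octamers (triangles) and NF-Y motifs (squares), on either strand, in the promoters of the 13 DNA replication genes with an octamer. The horizontal axis is the distance in bases of the first letter of the motif from the RefSeq start, and genes are ordered by log2 ratio from Cdc6 (-1.98, top) to Gins3 (0.07, bottom); 8 genes carry both motifs.

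The counting precision of each gene was estimated from FPKM, the aligned bases and the length of the shortest coding transcript, at 300 aligned bases per read pair. This gave 17 to 4404 read pairs per gene in M (median 163) and 7 to 814 in MR (median 71). For the 41 genes with 1 locus in both libraries, exact Clopper-Pearson 95% intervals of the ratio lay below no difference in 27, above it in 4 and around it in 10. The pair numbers depend on the assumed length. From the listed coverage and the exon bases in each locus, an estimate added after seeing the data, the medians were 401 pairs in M and 197 in MR, and the intervals lay below in 29, above in 5 and around no difference in 7. With median-of-ratios scaling, also added, 30 lay below, 2 above (Dut and Chaf1b) and 9 around. Read pairs are not independent molecules and transcript lengths were estimated, so the intervals cover counting error only and not the variation between cultures. Intervals were not computed for all genes tested, so none of these counts has a share of all genes beside it. No difference means a log2 ratio of 0, whereas the median over all genes tested was 0.21. In what follows, a level is a TPM, a fold is a plain ratio of 2 levels with its counting interval, and a log2 ratio has 1 TPM added.

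**Figure D3:**
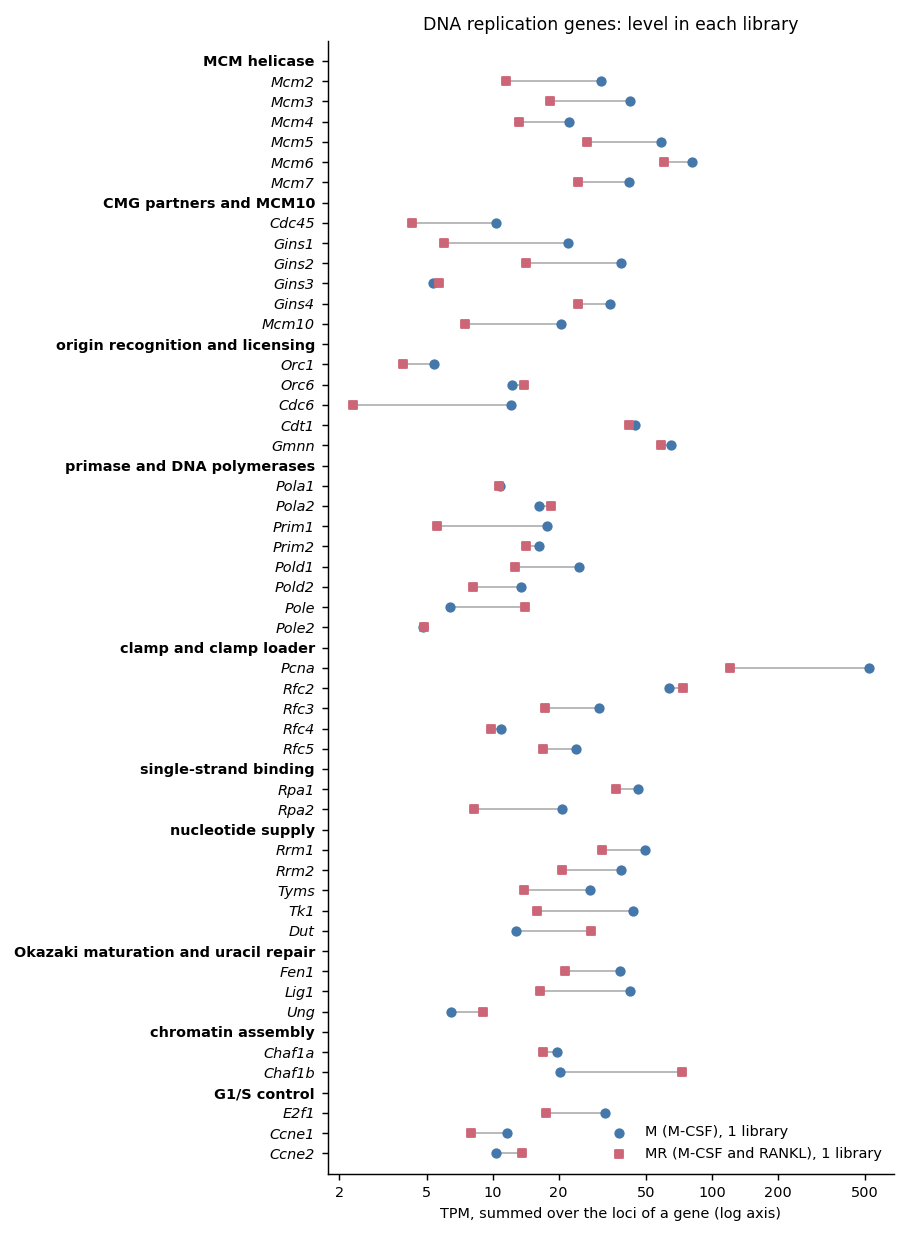
Level of each DNA replication gene in the M library (blue circles) and the MR library (red squares), as TPM on a log axis, grouped by role, with 1 library per condition and a gray line between the values of a gene. Squares lie left of circles for 35 of the 45 genes, and Pcna has the highest level in each library, 518 in M and 121 in MR.

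All 6 subunits of the MCM2-7 helicase, which unwinds the parental strands, were lower in MR, against 40.5% of all genes. The median log2 ratio of the 6 was -0.92, and 3 of the 6 (50%) lay below -1, against 13.3% of all genes. Mcm2 (ENSMUSG00000002870.8, GRCm38 chromosome 6, 88883474 to 88898780, minus strand) stood at 31.2 TPM in M and 11.6 in MR, 2.69-fold lower in MR (2.27 to 3.21). Mcm3 had 42.4 and 18.2, which was 2.32-fold lower (2.005 to 2.70). Mcm5 had 58.9 and 26.9, which was 2.19-fold lower (1.92 to 2.50). By TPM these 3 subunits were the ones below -1. By coverage per aligned Gb with 1 added, Mcm7 also lay below -1, at -1.14, and its plain fold by that measure was 2.35. Mcm7 stood at 41.7 in M and 24.5 in MR (1.70-fold lower, 1.28 to 2.29), and Mcm4 at 22.3 and 13.3 (1.68-fold lower, 1.03 to 2.82). Mcm6 was the most abundant subunit in both libraries and differed least, with 81.2 in M and 60.6 in MR (1.34-fold lower, 1.23 to 1.47). The 6 proteins form 1 ring in equal numbers, yet the highest transcript exceeded the lowest 3.65-fold in M and 5.24-fold in MR.

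Of 6 genes whose proteins join the MCM ring in the active helicase or activate it, 5 (83.3%) were lower in MR, against 40.5% of all genes. Below -1 lay 4 (66.7%), against 13.3% of all genes. The median log2 ratio of the 6 was -1.23, and by coverage per aligned Gb with 1 added it was -1.10, against -1.07 for the MCM subunits. Gins1 (ENSMUSG00000027454.10, chromosome 2, 150905400 to 150931280, plus strand), a GINS subunit, had 22.1 TPM in M and 5.99 in MR, 3.69-fold lower (2.46 to 5.72). Gins2 had 38.4 and 14.2, or 2.70-fold lower (1.998 to 3.71), from loci that held 31.8% and 19.7% of its annotated exon bases. Gins4 had 34.5 and 24.6, or 1.40-fold lower (1.14 to 1.73). The 4 GINS subunits thus did not differ by a common factor, and Gins3, the least abundant, had 5.36 in M and 5.69 in MR, with an interval of 0.514 to 2.16 for MR over M. Cdc45, the GINS partner in the CMG helicase, had 10.4 and 4.30, 2.41-fold lower (1.34 to 4.55). Mcm10, which activates the assembled helicase, had 20.6 and 7.45, 2.76-fold lower (2.24 to 3.43). Cdc45 was low in both libraries, and its listed coverage differed more than its TPM, with 17.4 in M and 2.33 in MR.

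The licensing factors were split. Cdc6 (ENSMUSG00000017499.15, chromosome 11, 98907801 to 98923940, plus strand), the ATPase that loads the MCM ring, had 12.1 TPM in M and 2.32 in MR, 5.23-fold lower (3.45 to 8.23). By TPM this was the largest fold of the 45 genes, whereas by coverage per aligned Gb Cdc6 was 3.71-fold lower and Cdc45 6.12-fold, Pcna 4.64-fold and Pold1 4.54-fold lower. Cdt1, which brings the ring to the origin, had 44.8 and 41.9, and its fold of 1.07 had an interval of 0.937 to 1.22. Gmnn, which encodes the CDT1 inhibitor geminin, had 65.1 and 58.7, with a fold of 1.11 and an interval of 0.916 to 1.34. By TPM Cdt1 and Gmnn kept a nearly equal ratio, 1.45 in M and 1.40 in MR (Gmnn over Cdt1), while Cdt1 exceeded Cdc6 3.69-fold in M and 18.1-fold in MR. By listed coverage Gmnn lay below Cdt1 in M (57.3 and 75.2) and slightly above it in MR (56.5 and 55.6). Of the origin recognition subunits, Orc6 had 12.3 in M and 13.9 in MR, with an interval of 0.752 to 1.71 for MR over M. Orc1 was assembled as 3 short loci in each library, which summed to 5.42 and 3.91 TPM and held 43.3% and 29.7% of its exon bases. The median log2 ratio of these 5 genes was -0.15, and 4 of the 5 (80%) were lower in MR, against 40.5% of all genes. Orc1, 1 of these 4, changed sign with the locus that has the most exon bases. The log2 ratio of Gmnn, -0.15 by TPM, was 0.25 by coverage per aligned Gb with 1 added.

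Primase and the replicative polymerases differed among their subunits. Prim1 (ENSMUSG00000025395.14, chromosome 10, 128015168 to 128030037, plus strand), the catalytic primase subunit, had 17.6 TPM in M and 5.55 in MR, 3.17-fold lower (2.21 to 4.65). Prim2, the other primase subunit, had 16.3 and 14.2, with a fold of 1.15 and an interval of 0.909 to 1.46. The subunits of primase thus had unequal ratios. Of polymerase delta, the lagging strand polymerase, the catalytic subunit Pold1 had 24.9 and 12.7 (1.96-fold lower, 1.29 to 3.03), and its partner Pold2 had 13.5 and 8.11 (1.66-fold lower, 1.07 to 2.64). The listed coverage of Pold1 was 41.8 in M against 7.56 in MR. The log2 ratio of Pold1 was -0.92 by TPM and -1.82 by coverage per aligned Gb with 1 added. Pole2, a subunit of polymerase epsilon, had 4.81 and 4.85, with an interval of 0.629 to 1.61 for MR over M. By TPM summed over loci, 5 of the 8 genes (62.5%) were lower in MR, against 40.5% of all genes. Below -1 lay 1 (12.5%), near the 13.3% of all genes, and above 1 lay 1 (12.5%), against 21.2%. By that sum the median log2 ratio of the 8 genes was -0.10.

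That median depends on how Pole and Pola1, which were assembled in pieces, were counted. Pole (ENSMUSG00000007080.14, chromosome 5, 110286306 to 110337474, plus strand), the catalytic subunit of the leading strand polymerase, was assembled in M as 1 locus of 6.37 TPM over 99.4% of its exon bases. In MR it was assembled as 7 loci of 0.754 to 3.67 TPM that together held 76.2% of the exon bases. Each of these 7 was lower than the M locus, but their sum was 14.0, so that the log2 ratio was 1.03 by the sum, -1.21 by a mean over loci weighted by exon bases, and -1.09 by the locus with the most exon bases. Pola1, the catalytic subunit of polymerase alpha, was 1 locus of 10.8 TPM in M and 2 loci of 4.76 and 5.88 TPM in MR. Its log2 ratio was -0.02 by the sum and -0.95 by the weighted mean. Pola2, the regulatory subunit, had 16.3 in M and 18.4 in MR by the sum and 16.4 in MR by the weighted mean. The median of the 8 genes was -0.79 with the weighted mean. TPM is already divided by length, so a sum over pieces of a transcript grows with the number of pieces, and no MR locus of Pole or Pola1 was higher than the M locus of its gene.

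**Figure D4:**
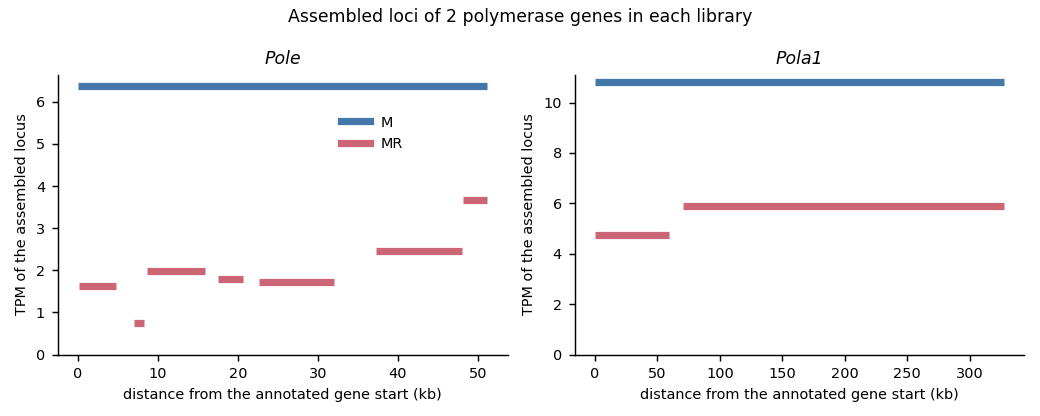
Assembled loci of Pole (left) and Pola1 (right) in the M library (blue) and the MR library (red). Each bar spans a locus, with the distance from the annotated gene start in kb on the horizontal axis and the TPM of that locus on the vertical axis; all 7 MR loci of Pole (0.754 to 3.67 TPM) lie below its M locus (6.37), and both MR loci of Pola1 lie below its M locus (10.8).

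Pcna (ENSMUSG00000027342.14, chromosome 2, 132249162 to 132253314, minus strand), the sliding clamp that holds polymerases on DNA, was the most abundant of the 45 genes in both libraries and had the lowest log2 ratio. Its TPM was 518 in M and 121 in MR, 4.27-fold lower (3.96 to 4.61), with an estimated 4404 and 814 read pairs. It ranked 282nd of the 13464 genes tested by level in M and 1274th in MR. The clamp loader subunits Rfc2 to Rfc5, which help to open PCNA, were lower by less or not at all. Rfc3 had 30.5 and 17.3 (1.76-fold lower, 1.39 to 2.25), and Rfc5 had 23.9 and 16.9 (1.41-fold lower, 1.01 to 1.98). Rfc4 had 11.0 and 9.81, with a fold of 1.12 and an interval of 0.720 to 1.75. Rfc2 had 63.9 in M and 73.5 in MR, 1.15-fold higher by TPM (1.05 to 1.27), from loci that held 43.6% and 39.5% of its exon bases. Its log2 ratio, 0.20, was close to the median of all genes (0.21), and with median-of-ratios scaling the fold was 1.01 (0.923 to 1.11). Rfc2 was the most abundant of these 4 subunits in both libraries, and the highest exceeded the lowest 5.83-fold in M and 7.50-fold in MR. The large loader subunit Rfc1, which is not among the 45 genes, had 39.8 and 19.8 (log2 ratio -0.97).

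Replication protein A coats single-stranded DNA at the fork, and its large and middle subunits, Rpa1 and Rpa2, were lower in MR. Rpa2 had 20.8 TPM in M and 8.24 in MR, 2.53-fold lower (1.56 to 4.23). Rpa1 had 45.9 and 36.5, 1.26-fold lower (1.12 to 1.41), and its interval did not overlap that of Rpa2. The small subunit Rpa3, which is not among the 45 genes, had 12.1 and 20.5 (log2 ratio 0.71).

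Of 5 genes of deoxynucleotide supply, 4 (80%) were lower in MR, against 40.5% of all genes, and the median log2 ratio of the 5 was -0.87. Tk1 (ENSMUSG00000025574.13, chromosome 11, 117815526 to 117826092, minus strand), the thymidine kinase of the salvage pathway, had 43.8 TPM in M and 15.9 in MR, 2.76-fold lower (2.20 to 3.47). Tyms, thymidylate synthase, had 27.9 and 13.9, 2.01-fold lower (1.27 to 3.26). TK1 and TYMS proteins both supply thymidine nucleotides, by salvage and by synthesis. Rrm2 and Rrm1, the small and large subunits of ribonucleotide reductase, had 38.5 and 20.6 (1.87-fold lower, 1.41 to 2.50) and 49.4 and 31.6 (1.56-fold lower, 1.41 to 1.73). The ratio of Rrm1 to Rrm2 was 1.28 in M and 1.53 in MR. Dut (ENSMUSG00000027203.15, chromosome 2, 125247190 to 125258608, plus strand), the dUTPase that keeps uracil out of DNA, was the exception, with 12.8 in M and 28.01 in MR, 2.19-fold higher in MR (1.63 to 2.96). The locus of Dut held 61.4% of its exon bases in M and 61.5% in MR, so that it spanned nearly the same share of the annotated exon bases in both.

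The enzymes that finish the lagging strand were both lower in MR. Lig1, DNA ligase 1, had 42.3 TPM in M and 16.5 in MR, 2.57-fold lower (1.86 to 3.598). Fen1, the flap endonuclease, had 38.0 and 21.4, 1.78-fold lower (1.504 to 2.12). Ung, the glycosylase that removes uracil from DNA, had 6.45 and 9.06, a fold of 1.41 for MR over M. Its interval was 0.755 to 2.63 with 22 and 24 read pairs, as estimated from the shortest coding transcript, and 1.14 to 1.73 with 178 and 198 pairs, as estimated from coverage and exon bases. With median-of-ratios scaling and the lower pair numbers, the fold was 1.24 (0.665 to 2.32).

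Chromatin assembly factor 1 places histones on new DNA, and its subunits Chaf1a and Chaf1b parted. Chaf1b (ENSMUSG00000022945.12, chromosome 16, 93883901 to 93906115, plus strand) had 20.2 TPM in M and 73.1 in MR, 3.61-fold higher (2.64 to 5.01), the highest log2 ratio of the 45 genes. Chaf1a had 19.6 and 17.0, with an interval of 0.601 to 1.24 for MR over M. The subunits were thus at nearly equal levels in M, with a ratio of 1.03, and 4.31-fold apart in MR. For Chaf1b the listed coverage, 13.3 in M and 36.5 in MR, was 39.1% and 37.6% of the value that its FPKM corresponds to, the lowest of the 45 genes in each library, and its log2 ratio by coverage per aligned Gb was 1.51.

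Of the G1/S control genes, E2f1, an activating E2F, had 32.6 TPM in M and 17.4 in MR, 1.87-fold lower (1.58 to 2.21). The E-type cyclins, partners of CDK2 at the entry into S phase, differed from each other. Ccne1 had 11.6 and 7.94, with a fold of 1.46 and an interval of 0.843 to 2.61 (0.523 to 0.886 for MR over M with pairs from coverage and exon bases). Ccne2 had 10.3 and 13.6, 1.32-fold higher in MR (1.06 to 1.64). By TPM Ccne2 was 1 of 4 genes with a single locus whose interval lay above no difference, with Rfc2, Dut and Chaf1b. With median-of-ratios scaling the fold of Ccne2 was 1.16 (0.935 to 1.44).

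**Figure D5:**
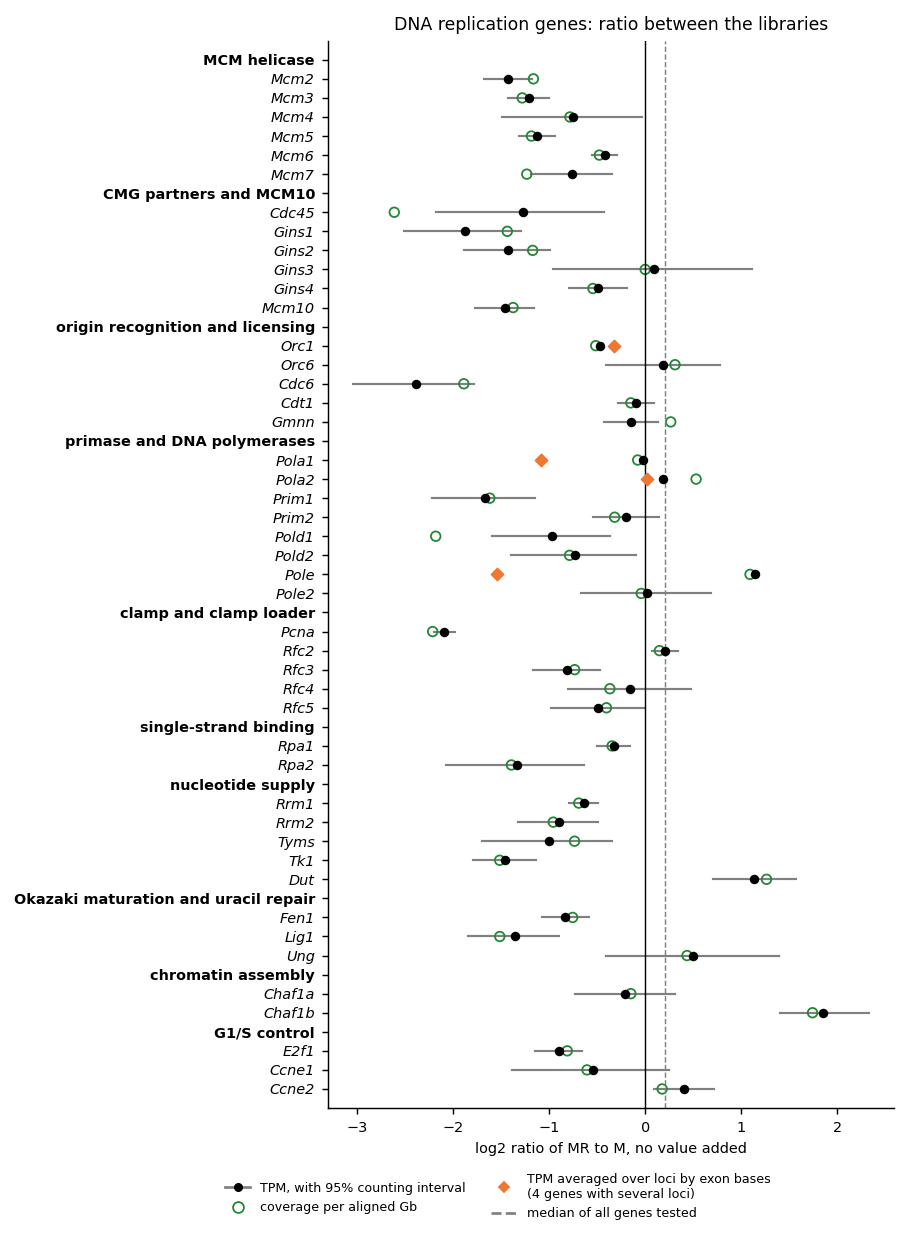
Log2 ratio of MR to M for each DNA replication gene, with no value added, by TPM (black points, with 95% counting intervals for the 41 genes with 1 locus in both libraries), by coverage per aligned Gb (open green circles) and, for the 4 genes with several loci, by TPM averaged over loci by exon bases (orange diamonds). The dashed line is the median of all genes tested with 1 TPM added (0.21). Of the intervals, 27 lie below 0 and 4 above, with no share of all genes computed. Pole lies on opposite sides of 0 by the sum and by the average.

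Other genes of DNA replication, kept as a separate list of 65, had a median log2 ratio of -0.09, and 35 of the 65 (53.8%) were lower in MR, against 40.5% of all genes. Unlike the genes tested, Chtf8, Donson and Rnaseh2a of this list had a locus shared with another coding gene. By TPM summed over loci, 8 of the 65 (12.3%) lay below -1, near the 13.3% of all genes, and 4 (6.15%) above 1, against 21.2%. Genes assembled in several loci depend on that sum. With the exon-weighted mean, Timeless moved from -0.73 to -1.72, Dtl from -0.01 to -1.51, Wdhd1 from 0.004 to -1.05 and Cdc7 from -0.28 to -1.05. Others rose, such as Shmt1 (0.82 to 1.44) and Ticrr (-0.31 to 0.10). With that mean no share of all genes was computed. Among the genes of this list with a TPM of at least 10 in a library, the lowest log2 ratios were those of Dck, deoxycytidine kinase (196 in M and 56.5 in MR, log2 ratio -1.77), Uhrf1, which carries DNA methylation through replication (40.01 and 12.5, -1.61), and E2f2, an activating E2F (14.8 and 4.37, -1.55). The highest were those of Pold4, a small subunit of polymerase delta (36.0 and 94.3, log2 ratio 1.37), Orc4, an origin recognition subunit (8.86 and 20.3, 1.11), and Cdc25a, a phosphatase that activates CDKs (6.71 and 14.5, 1.01 by the sum over its 2 loci in MR and 0.16 by the exon-weighted mean). Polymerase delta thus had lower levels of Pold1 and Pold2 and a higher level of Pold4 in MR. Its subunit Pold3 had 28.6 and 23.9 (log2 ratio -0.25), with an interval of 0.671 to 1.04 for MR over M. E2f5, listed at 0 in M and 6.46 in MR, had the highest log2 ratio of the 65 but stayed under a TPM of 10.

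Genes of mitosis were lower in MR in 16 of 24 cases (66.7%, against 40.5% of all genes), with a median log2 ratio of -0.38. Below -1 lay 2 of 24 (8.33%), under the 13.3% of all genes, and above 1 lay 1 (4.17%), against 21.2%. Tpx2, a spindle assembly factor, had 57.7 TPM in M and 16.0 in MR (log2 ratio -1.78), Aurkb, a mitotic kinase, 18.7 and 6.87 (-1.32), and Mki67, the proliferation marker Ki-67, 23.1 and 12.4 (-0.85). On the other side were Cenpa, the centromeric histone, with 11.3 and 28.9 (1.29 by TPM but -0.25 by coverage per aligned Gb), Cdc20, an activator of the anaphase-promoting complex, with 10.5 and 17.9 (0.72), and Ccnb2, a mitotic cyclin, with 13.7 and 20.4 (0.54). Of 12 regulators of G1, 8 (66.7%) were lower in MR, against 40.5% of all genes, and the median log2 ratio was -0.42. Below -1 lay 3 (25%), against 13.3% of all genes, and above 1 lay 2 (16.7%), against 21.2%. Ccnd1, cyclin D1, had 142 TPM in M and 14.9 in MR (log2 ratio -3.17), Cdkn1a, the CDK inhibitor p21, 437 and 167 (-1.39), and Ccnd3, cyclin D3, 70.2 and 36.9 (-0.91). Ccnd2, cyclin D2, also lay below -1 (7.37 and 1.37, log2 ratio -1.82) but stayed under a TPM of 10. Higher in MR were the CDK inhibitors Cdkn2b, with 2.84 and 12.8 (1.85), and Cdkn1b, which encodes p27, with 17.5 and 59.7 (1.71), and the kinase gene Cdk4, with 106 and 141 (0.41). The CDK inhibitors thus did not share a direction.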

How the data were processed

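The authors removed adaptors with Trim Galore, mapped paired reads of 150 bases to mm10 with HISAT2 and assembled and quantified them with StringTie; versions are not given in the sources used here. The deposited tables list, per entry, a coverage (read depth per base without library scaling) besides an FPKM and a TPM. The authors' TPM of the assembled loci sum to 1000000 in each library. M holds 19422 assembled loci and MR 19922. The entries with gene names (55366 and 55364), placed on another build, were not used.

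Loci were given to genes of GENCODE vM21 with at least 50 exon bases on the strand of the locus, 15665 in M (95.4% of TPM) and 16523 in MR (96.9%). A locus that also held 50% of the exon bases of another coding gene was called shared. Ratios had a pseudocount of 1 TPM. With 1 library per condition no test was made. Members, lists and settings were chosen with earlier results of these data known. All 45 members are described, and of the other lists the 3 lowest and 3 highest log2 ratios with a TPM of at least 10. Ccnd2, Cdc7, Dtl, E2f5, Pold3, Rfc1, Rpa3, Shmt1, Ticrr, Timeless and Wdhd1 were named after their values were seen. Chtf8, Donson and Rnaseh2a were named for their shared loci. Alternatives tried were no filter or a TPM of at least 10, a pseudocount of 0.1, FPKM, coverage per aligned Gb, median-of-ratios scaling, TPM without mitochondrial and the 20 most abundant genes, the locus with the most exon bases, genes with their own locus in both libraries, a log2 threshold of 2 and, added after seeing the data, an exon-weighted mean over loci and counting intervals with pairs from coverage and exon bases or with median-of-ratios scaling. The assignment was tried on simulated loci, 1 per gene, with ends near the annotated gene ends. That simulation held no split, merged or extended loci, so it cannot decide how well those are assigned. Promoters are those of RefSeq, and 9 members without an entry were Gmnn, Gins1, Gins2, Gins4, Pole, Ccne2, Rfc2, Prim2 and Mcm4. Scripts ran on Python 3.11.15 (matplotlib 3.10.9, scipy 1.17.1, pandas 2.3.3, numpy 2.4.6).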

Additional observations from a re-analysis of the deposited data

How the results depend on the processing

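The median log2 ratio of the 45 genes lay between -0.80 and -0.63, and 35 to 39 of the 45 were lower in MR, under the 10 alternatives run, except that the TPM minimum of 10 kept 41 genes, of which 34 were lower. The share of all genes lower in MR moved as well, from 40.5% to 48.3% over the settings for which it was computed. At a log2 threshold of 1, 12 to 17 genes lay below -1, while the share of all genes below -1 ran from 9.41% to 15.7%. The count above 1 was 1 with FPKM (against 15.3% of all genes) and 1 with median-of-ratios scaling (against 17.9%), in place of 3 (against 21.2%). With a log2 threshold of 2 it was 0 (against 7.12% of all genes), with 1 gene (Pcna) below -2 (against 3.87%). Pole turned from 1.03 to -1.09 with the locus that has the most exon bases and to -1.21 with the exon-weighted mean, which takes no sum over the 7 loci of MR. In all, 7 of the 45 genes changed sign under an alternative (Gins3, Gmnn, Orc1, Orc6, Pola2, Pole and Pole2) and 38 did not. No paired analysis was possible because each condition has 1 library, and for the same reason no replicate could be left out. Read counts are not listed, so precision rests on estimated pairs: the shortest coding transcript gives intervals with a median half-width of 0.43 on the log2 scale (up to 1.03), and longer lengths give narrower ones. The intervals above no difference numbered 4, and 2 with median-of-ratios scaling, counts that have no share of all genes beside them.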

Other observations

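The assembled 5′ ends of the replication genes mostly lay at annotated starts. Of the 41 genes with 1 locus in both libraries, the 5′ end lay within 50 bases of an annotated transcript start for 33 in M and 30 in MR, with a median distance of 24 and 14 bases. Between the libraries the 5′ ends lay at most 50 bases apart in 29 genes and farther apart in 12. Mcm2 and Gmnn stood out, with 5799 and 5747 bases between their ends in M and MR. In M the locus of Mcm2 began 5712 bases upstream of the gene, over a stretch that holds 280 exon bases of Tpra1 on the other strand and 0 of any gene on its own strand. The locus of Gmnn began 7607 bases upstream of its gene in M and 1860 in MR, over 0 annotated exon bases of either strand. The values of these genes include these stretches, and their part in the ratios was not tested.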
